A study of Mus musculus with 20 samples.

Results

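Gonadal fat pads were compared with livers, both from wild-type (WT) animals of C57BL/6 background, with 5 libraries from each tissue. These are all the WT libraries of the series, 10 of its 20, and were taken by genotype and tissue as labelled. All mice had eaten a high-fat diet over 1 week and had been fasted for 6 h, so neither tissue has a chow-fed or a fed reference here. Libraries of a knockout genotype make up the other 10 and were not used. The labels give neither sex nor age, and give no batch, so tissue and anything that was done separately to each tissue cannot be told apart. They do not say that a library is 1 mouse, and p-values measure the spread between these libraries. White fat stores triglyceride in adipocytes, releases fatty acids by lipolysis during fasting, and secretes hormones such as leptin and adiponectin. The liver takes those fatty acids up, makes ketone bodies and glucose from what it is sent, and secretes most plasma proteins, bile and very-low-density lipoprotein. Much of this division of work rests on which member of an enzyme, transporter or receptor family each organ transcribes.

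Libraries held 13550457 to 17276907 counts in fat and 13836370 to 18543266 in liver. Levels are counts-per-million values (CPM) after scaling by the trimmed mean of M-values (TMM), the log2 fold change is fat minus liver, and errors are SDs over 5 libraries. Levels of different genes are compared only per kilobase of exon. Both labels matched their defining markers: 20 of 20 hepatocyte genes were higher in liver and 19 of 19 tested adipocyte genes were higher in fat, where 35.9% and 38.4% of all 14739 genes tested were called in those directions at an adjusted p under 0.05. The hepatocyte genes summed to 3346 to 6120.2 CPM in fat and 230514 to 246847 CPM in liver, and the adipocyte genes to 33254 to 60733 CPM in fat and 1168 to 1821 CPM in liver. Most of the hepatocyte sum in fat came from Pck1 and from Cyp2e1, which had a mean of 2176 CPM there. Most of the adipocyte sum in liver came from Car3, at a mean of 1237 CPM. The sums thus say little about the other genes of either list in the tissue where they were low. Marker genes of other tissues or cells stood higher in some libraries than in others of the same tissue, which the plot of marker genes by library shows. What part tissue carried over between samples or dissected along with them had in these levels was not tested. Alb, serum albumin, was at 31.8, 52.9, 9.44, 338 and 51.7 CPM in fat libraries 1 to 5, so fat 4 stood above the other four. Adipoq, adiponectin, was at 0.238, 0.593, 0, 5.91 and 6.12 CPM in liver libraries 1 to 5, so liver 4 and liver 5 stood above the rest. Acta1, skeletal muscle actin, was at 9.01, 125, 79.4, 52.4 and 56.7 CPM in fat 1 to 5 and at 0.238, 57.6, 6.96, 106 and 0.0850 CPM in liver 1 to 5, with low values in fat 1, liver 1, liver 3 and liver 5. Gpnmb, a gene of lipid-laden macrophages, was at 6.26, 11.3, 423, 9.52 and 23.7 CPM in fat 1 to 5, highest in fat 3. Xist, which is transcribed from an inactive X chromosome, was at 896 ± 229 CPM in fat and 1199 ± 237 CPM in liver. It was the only 1 of 6 listed sex-linked transcripts with enough counts to be tested. Ddx3y, Eif2s3y, Kdm5d and Uty, which lie on the Y chromosome, had too few counts to be tested. All 6 together summed to 620 to 1184 CPM in the fat libraries and 846 to 1471 CPM in the liver libraries. Nearly all of each sum was Xist, so the Y-linked genes were almost absent. Fold changes of the largest differences therefore depend on these libraries, and values without them are given where they move by more than 1.5-fold. In bulk RNA, fewer cells of a type and less RNA per cell cannot be told apart.

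**Figure D1:**
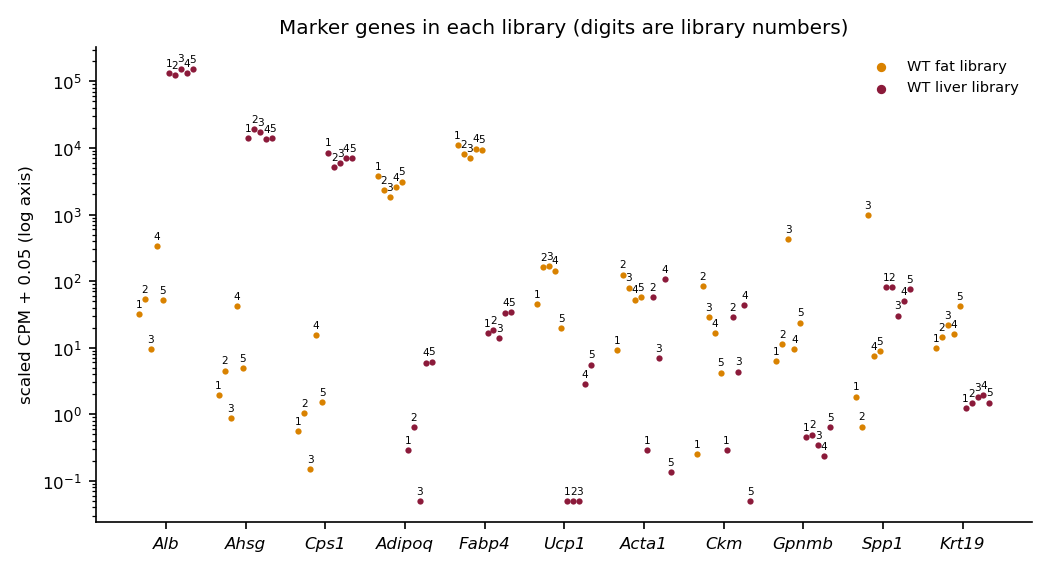
Level of 11 marker genes in each of the 10 libraries, in scaled CPM plus 0.05 on a log axis; points are single libraries and digits their numbers. Hepatocyte genes (Alb, Ahsg, Cps1) were highest in fat 4 among the fat libraries, adipocyte genes (Adipoq, Fabp4) in liver 4 and liver 5 among the liver libraries, and Gpnmb and Spp1 in fat 3.

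Most genes differed between the tissues. Of 14739 genes tested, 10947 (74.3%) were called by edgeR's quasi-likelihood test, 5663 higher in fat and 5284 higher in liver. For 9201 genes (62.4%) the ranges of the 5 fat and the 5 liver libraries did not overlap. Many of the differences were small, with 39.8% of the called genes under 2-fold. At least 4-fold, 2283 genes (15.5%) were higher in fat and 1599 (10.8%) higher in liver. At least 64-fold, the order turned around: 333 genes (2.26%) were higher in fat and 580 (3.94%) higher in liver. The split moved with the scaling. Fat held 51.7% of the called genes with TMM, 65.1% with upper-quartile factors and 82.5% with plain library sizes. The median log2 fold change over all genes was 0.04, 0.34 and 0.97 under these scalings. Of the 3792 genes not called, 2144 had a 95% interval within 1.5-fold in both directions.

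**Figure D2:**
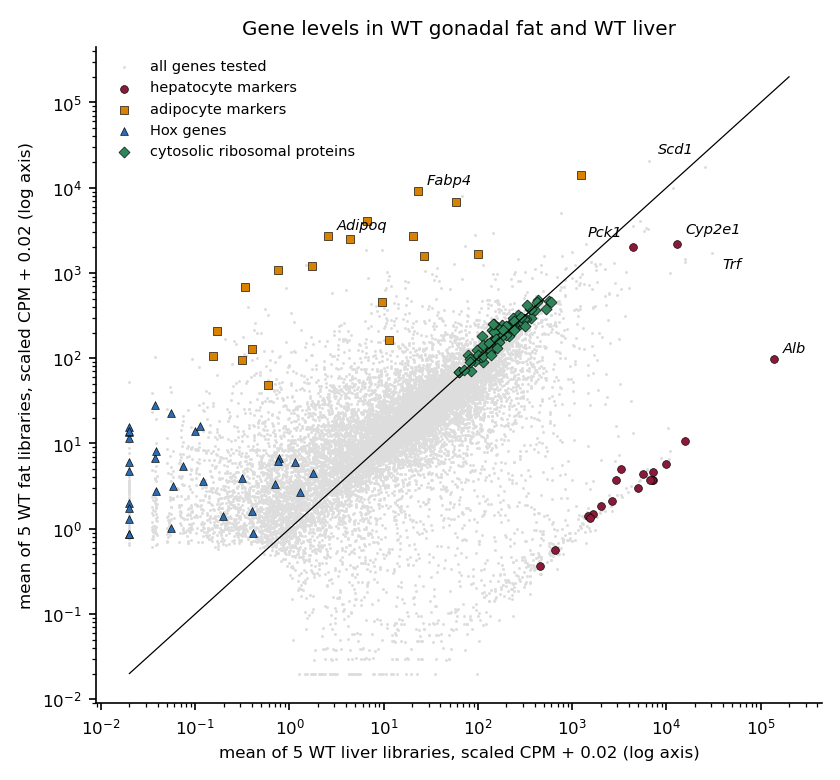
Mean level of each of 14739 genes in 5 WT liver libraries (x axis) and 5 WT fat libraries (y axis), in scaled CPM plus 0.02 on log axes, with the line of equal levels. Ribosomal protein genes lie near that line, adipocyte markers and Hox genes above it, and hepatocyte markers below it, of which Cyp2e1 and Pck1 lie nearest to it.

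The largest fold differences belonged to genes of several kinds in each tissue. Oxtr, the oxytocin receptor, had 5493 counts over the fat libraries and 0 over the liver libraries, which makes it at least 1020-fold higher in fat when the floor is 3 counts over the group. Cdsn, which encodes corneodesmosin, a protein best known from skin, was at 123, 123, 54.9, 101 and 117 CPM in fat libraries 1 to 5 and had 1 count in all liver libraries together. Lep, which encodes leptin, was at 754, 804, 395, 581 and 845 CPM in fat 1 to 5 and at 0, 0.148, 0.196, 0.656 and 0.595 CPM in liver 1 to 5, a log2 fold change of 11.06 (95% interval 9.96 to 12.16, adjusted p = 2.65e-09). Also among the 15 largest in fat were the thyrotropin receptor Tshr at 97.3 ± 24.8 CPM in fat and 0.0715 ± 0.0981 CPM in liver, the growth factor Fgf10 at 79.2 ± 9.72 and 0.0885 ± 0.123 CPM, the synuclein Sncg at 685 ± 259 and 0.345 ± 0.275 CPM, and the imprinted gene Nnat at 670.4 ± 119 and 0.908 ± 0.357 CPM. The log2 fold change of Tshr was 10.33 (10.95 without liver 4 and 10.92 without liver 5), and that of Fgf10 was 9.74 (10.62 without liver 5). On the liver side, Onecut1, a transcription factor of hepatocyte development, had no count in fat and 5721 counts in liver, where it was at 43.5, 152, 57.7, 160.4 and 69.6 CPM. Sds, serine dehydratase, was at 0.0755 ± 0.0842 CPM in fat and 234 ± 66.3 CPM in liver, with a log2 fold change of -11.46 (-12.04 without fat 4). Igfbp1, an insulin-suppressed binding protein of insulin-like growth factors, was at 0.151 ± 0.207 CPM in fat and 361 ± 152 CPM in liver, with a log2 fold change of -11.07 (-11.74 without fat 2). Inhbe, an inhibin subunit made by hepatocytes, was at 67.9, 60.6, 123, 61.7 and 46.9 CPM in liver 1 to 5 and had at most 1 count in any fat library.

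The liver transcriptome was the more concentrated of the pair. The 10 genes with the most counts held 13.7 ± 2.64% of a fat library and 21.4 ± 0.851% of a liver library, with no overlap (two-sided exact permutation test, p = 0.00794, the smallest that this design allows). The number of genes that made up the first 50% of the counts was 622 ± 95.5 in fat and 165 ± 8.14 in liver (exact permutation p = 0.00794). Alb alone held 10.1 ± 1.11% of the counts of a liver library. In fat the first rank went to Scd1, the stearoyl-CoA desaturase, in some libraries and to the mitochondrial gene mt-Co1 in others, with 3.07 ± 0.909% for whichever was first. The genes with the most counts in fat were Scd1, mt-Co1, Car3, mt-Cytb, Fabp4, Gsn, Lpl, Fasn, Cfd and mt-Nd1. In liver they were Alb, Trf, mt-Co1, Apoe, Ahsg, C3, Cyp2e1, mt-Cytb, Selenop and Apob. Of the 100 genes with the most counts in each tissue, 24 were shared.

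Genes of plasma proteins made by hepatocytes were mostly far higher in liver, but a few of them were also abundant in fat. All 16 serum carrier proteins were higher in liver, with a median log2 fold change of -10.24 (-11.34 without fat 4) against 0.04 over all genes, and so were 22 of 30 coagulation and fibrinolysis genes, with a median of -8.91 (-9.62 without fat 4). Alb was at 132376, 123944, 155487, 133742 and 154668 CPM in liver 1 to 5, and its log2 fold change was -10.50 (95% interval -13.05 to -7.95, adjusted p = 5.48e-06), or -11.90 without fat 4. The fibrinogen alpha chain gene Fga was at 0.866, 1.67, 0.0508, 14.3 and 1.61 CPM in fat 1 to 5 and 6695, 8503, 6004, 8518 and 5162 CPM in liver 1 to 5, a log2 fold change of -10.88 (-12.66 without fat 4). Fat libraries were thus ordered alike for both genes, with fat 4 highest and fat 3 lowest. The transferrin gene Trf behaved otherwise: it was at 2156, 1521, 1189, 2049 and 1758 CPM in fat 1 to 5 and 32524, 33936, 28620.0, 29929 and 28834 CPM in liver 1 to 5, a log2 fold change of -4.15 (95% interval -4.85 to -3.45, adjusted p = 2.32e-07). Fat 4 was not the highest fat library for Trf. Apoe, the apolipoprotein of remnant lipoproteins, was at 1452 ± 149.8 CPM in fat and 15888 ± 1760.1 CPM in liver (log2 fold change -3.45), and the selenium carrier Selenop at 1001 ± 111 CPM in fat and 10937 ± 979.6 CPM in liver (-3.45).

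Of 124 genes that reached 1000 CPM in liver and were called at least 4-fold higher there, 64 were under 0.1% of their liver level in fat, 13 were between 0.1% and 1%, and 47 were at 1% or more. Among the 77 genes under 1%, the median level in fat libraries 1 to 5 was 0.0189%, 0.0287%, 0.00364%, 0.301% and 0.0427% of the liver level. Of 26 genes with the same properties in fat, 6 were under 0.1% of their fat level in liver, 7 between 0.1% and 1%, and 13 at 1% or more. For the 13 fat genes under 1%, the medians in liver libraries 1 to 5 were 0.181%, 0.203%, 0.152%, 0.419% and 0.375%. The transcripts that were rare in the other tissue were therefore highest in fat 4 and in liver 4 and 5.

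Complement genes were mostly higher in liver, by very unequal factors. Complement is a set of plasma proteins that mark microbes and dying cells, started through C1q, lectins or the alternative loop of C3 with factors B and D. Of 24 tested members 18 were higher in liver, 1 was higher in fat and 5 were not called. Mbl2, a mannose-binding lectin, was at 0.490 ± 0.840 CPM in fat and 805 ± 124 CPM in liver (-10.64, and -12.63 without fat 4), and C8a, part of the membrane attack complex, at 0.278 ± 0.341 CPM in fat and 454 ± 142 CPM in liver (-10.61, and -11.68 without fat 4). C3 was at 955, 1181, 1286, 1776 and 1490.5 CPM in fat 1 to 5 and 16014, 16265, 13588, 18689.8 and 13629.7 CPM in liver 1 to 5, a log2 fold change of -3.55 (95% interval -4.19 to -2.91, adjusted p = 3.96e-07). Cfb, factor B, was at 178 ± 27.2 CPM in fat and 2092 ± 229.6 CPM in liver (log2 fold change -3.55), and the inhibitor Serping1 at 253 ± 60.9 CPM in fat and 1134 ± 97.0 CPM in liver (-2.17). Cfd, which encodes factor D or adipsin, ran the other way with 3827, 3374, 3441, 5465 and 4257 CPM in fat and 0.715, 2.59, 0.196, 17.1 and 12.8 CPM in liver, a log2 fold change of 9.26 (95% interval 6.84 to 11.67, adjusted p = 1.03e-05), or 9.95 without liver 4. The C1q chains C1qa, C1qb and C1qc, which macrophages make, were not called, at log2 fold changes of 0.56, 0.41 and 0.29, and neither were the terminal component C6 at -0.33 and properdin, Cfp, at -0.35.

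Coagulation and fibrinolysis genes differed in direction. Among the 8 members higher in fat were F3, F13a1, Plat, Plau, Tfpi, Thbd and Vwf, which are known products of endothelium, macrophages or other stromal cells. Thbd, thrombomodulin, was at 121 ± 17.8 CPM in fat and 7.96 ± 2.45 CPM in liver (log2 fold change 3.91), and F13a1, the A subunit of factor XIII, at 122 ± 29.3 CPM in fat and 1.10 ± 0.408 CPM in liver (6.82). Against these, prothrombin F2 was at 1.60 ± 2.68 CPM in fat and 2656 ± 179 CPM in liver and plasminogen Plg at 2.71 ± 4.92 CPM in fat and 3919 ± 273 CPM in liver, with log2 fold changes of -10.68 (-12.62 without fat 4) and -10.49 (-12.82 without fat 4). F8, factor VIII, which liver sinusoidal endothelium makes, was at 4.42 ± 0.502 CPM in fat and 40.3 ± 6.18 CPM in liver (-3.19).

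Acute phase genes were higher in liver in 22 of 23 cases, with Saa3 not called at a log2 fold change of 1.62. The gaps were uneven. Haptoglobin, Hp, was at 1021 ± 527 CPM in fat and 3746 ± 1181 CPM in liver, a log2 fold change of -1.88, and the acid glycoprotein gene Orm1 was at 187 ± 40.5 CPM in fat and 752 ± 237 CPM in liver (-2.01). Hemopexin, Hpx, was at 3.72 ± 4.40 CPM in fat and 5267 ± 1057 CPM in liver, with a log2 fold change of -10.46 (-11.50 without fat 4). Lcn2, lipocalin 2, was at 0.509, 0.556, 2.59, 3.97 and 23.2 CPM in fat 1 to 5 and 60.6, 15.7, 7.74, 58.6 and 12.4 CPM in liver 1 to 5, with fat 5 highest among the fat libraries. Its log2 fold change of -2.33 (95% interval -4.42 to -0.24, adjusted p = 0.0438) was called over all libraries but missed the threshold when any of 7 of the 10 libraries was left out, and was -4.02 without fat 5.

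Bile acid genes were all higher in liver, most of them by large factors. Bile acids are made from cholesterol by a classical route that starts with Cyp7a1 and an alternative route through Cyp27a1, and are moved by carriers on the blood and the bile side of the hepatocyte. All 20 bile acid genes were higher in liver, 19 of them by at least 4-fold, with a median log2 fold change of -9.26 (-11.03 without fat 4). Cyp7a1 was at 0.153, 0.0855, 0, 3.37 and 0 CPM in fat 1 to 5 and 787, 360.1, 418, 522 and 359 CPM in liver 1 to 5, a log2 fold change of -9.37 (-12.82 without fat 4). Within liver, library 1 was the highest. The bile salt uptake carrier Slc10a1 was at 0.694 ± 1.34 CPM in fat and 988 ± 80.2 CPM in liver and the bile salt export pump Abcb11 at 0.491 ± 0.865 CPM in fat and 682 ± 77.1 CPM in liver, with log2 fold changes of -10.44 (-13.23 without fat 4) and -10.40 (-12.53 without fat 4). Other members had smaller gaps and were not silent in fat. Cyp27a1 was at 33.2 ± 5.98 CPM in fat and 475 ± 76.3 CPM in liver (-3.84), Hsd3b7, a steroid dehydrogenase of the pathway, at 81.8 ± 9.90 CPM in fat and 471 ± 108 CPM in liver (-2.52), and the thioesterase Acot8, the member under 4-fold, at 6.12 ± 0.778 CPM in fat and 15.7 ± 1.52 CPM in liver (-1.35). All 23 liver membrane transporters were likewise higher in liver, by at least 4-fold.

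Of 29 tested cytochrome P450 genes of families 1 to 4, 24 were higher in liver and 3 were higher in fat. Cyp2e1, which oxidises ethanol and acetone, was the only one with a mean above 100 CPM in both tissues, at 1912, 1708, 2032, 3242 and 1985 CPM in fat 1 to 5 and 13003, 14116, 10841, 13728 and 13249.8 CPM in liver 1 to 5. Its log2 fold change was -2.58 (95% interval -3.19 to -1.97, adjusted p = 4.27e-06). Cyp3a11, a main drug-oxidising enzyme, was at 1.38 ± 2.39 CPM in fat and 1486 ± 268 CPM in liver (-10.05, and -12.14 without fat 4), and Cyp1a2 at 0.610 ± 0.774 CPM in fat and 663 ± 219 CPM in liver. The 3 higher in fat were Cyp1b1 at 27.1 ± 13.1 CPM in fat and 2.02 ± 0.890 CPM in liver, Cyp2s1 at 9.52 ± 2.58 CPM in fat and 0.944 ± 0.191 CPM in liver and Cyp4b1 at 63.0 ± 9.72 CPM in fat and 21.2 ± 4.71 CPM in liver. Conjugating enzymes gave 28 of 32 higher in liver, and the 4 higher in fat were all glutathione transferases, Gstm2, Gstm5, Gstp2 and Mgst3. The Gstm and Gstp genes belong to families whose copies are similar in sequence.

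Genes of nitrogen disposal were mostly higher in liver. The urea cycle, by which hepatocytes turn ammonia into urea, had 9 of 10 tested genes higher in liver. Cps1, its entry enzyme, was at 0.509, 0.984, 0.102, 15.5 and 1.47 CPM in fat 1 to 5 and 8511, 5205, 5971, 6988 and 6959 CPM in liver 1 to 5 (-10.82, and -13.06 without fat 4). Arg1, the last enzyme of the cycle, was at 0.662, 0.812, 131, 8.73 and 2.08 CPM in fat 1 to 5 and 1927, 1439, 1410.3, 1595 and 1334 CPM in liver 1 to 5. The fat value was high in library 3 alone, which was also the library with the highest Gpnmb and Spp1, and the log2 fold change went from -5.75 to -8.95 without it. Glul, glutamine synthetase, was the member not called, at 1259.6 ± 288 CPM in fat and 1751 ± 274 CPM in liver. Of 32 amino acid breakdown genes 30 were higher in liver, with a median of -8.37 (-8.70 without fat 4).

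Branched-chain amino acid breakdown did not follow that pattern: 6 of 20 genes were higher in fat, 9 higher in liver and 5 not called. Its median was -0.21, 0.08 with upper-quartile factors and 0.71 with plain library sizes. Both aminotransferases of the first step were higher in fat. Bcat2, the mitochondrial aminotransferase, was at 166, 149, 93.1, 167 and 163 CPM in fat 1 to 5 and 34.3, 34.2, 38.0, 34.4 and 26.1 CPM in liver 1 to 5, a log2 fold change of 2.14 (95% interval 1.78 to 2.51, adjusted p = 2.45e-07). Bcat1, the cytosolic form, was at 1.58, 1.54, 12.1, 3.14 and 19.3 CPM in fat 1 to 5, and its log2 fold change was 7.00 (8.03 without liver 5 and 6.26 without fat 5). Ppm1k, the phosphatase that activates the next enzyme complex, was at 13.7 ± 3.0 CPM in fat and 135 ± 11.4 CPM in liver (-3.30), and its opposing kinase Bckdk at 53.7 ± 3.66 CPM in fat and 16.1 ± 1.42 CPM in liver (1.74).

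Cholesterol synthesis genes were mostly higher in liver. Cells make cholesterol from acetyl-CoA in a long chain of steps under the control of SREBP2. Of 25 genes of synthesis and uptake 23 were higher in liver, 16 of them at least 4-fold, and Mvk and Pmvk were not called. Idi1, which isomerises the isoprenoid unit, was at 8.0, 10.2, 5.58, 7.07 and 4.45 CPM in fat 1 to 5 and 24.9, 32.7, 73.8, 37.5 and 32.0 CPM in liver 1 to 5, a log2 fold change of -2.50 (95% interval -3.18 to -1.82, adjusted p = 1.49e-05). Cyp51, a sterol demethylase, was at 23.7 ± 3.58 CPM in fat and 134 ± 39.8 CPM in liver (-2.50).

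Transcription factors known for 1 of the tissues were mostly higher in it. Of 23 liver transcription factors 21 were higher in liver, 18 of them at least 4-fold, with a median log2 fold change of -7.85 (-8.07 without fat 4). Hnf4a, a nuclear receptor that sustains the hepatocyte programme, was at 0.204, 0.171, 0, 3.70 and 0.331 CPM in fat 1 to 5 and 852, 875, 817, 1179 and 979.6 CPM in liver 1 to 5, a log2 fold change of -10.03 (-12.30 without fat 4). Foxa3, a forkhead factor, was at 0.0467 ± 0.0328 CPM in fat and 58.9 ± 8.23 CPM in liver. Nr1h4, the bile acid receptor FXR, was at 0.833 ± 0.411 CPM in fat and 193 ± 14.3 CPM in liver (-7.83). Of 20 tested adipose factors 16 were higher in fat, with a median of 3.94. Pparg, the receptor that drives adipocyte differentiation, was at 206, 165, 138, 165 and 147 CPM in fat 1 to 5 and 15.8, 8.82, 10.8, 9.19 and 11.7 CPM in liver 1 to 5, a log2 fold change of 3.86 (95% interval 3.47 to 4.26, adjusted p = 3.12e-09). Ebf2, an adipocyte lineage factor, was at 29.5 ± 5.31 CPM in fat and 0.134 ± 0.0983 CPM in liver (7.68).

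Of the 7 C/EBP family genes 4 were higher in liver, Ddit3 was higher in fat at 0.61, and Cebpa and Cebpd were not called. The median of this list, -0.56, became 0.36 with plain library sizes. Cebpa, needed for both hepatocyte and adipocyte differentiation, was at 512, 584, 308, 594 and 388 CPM in fat 1 to 5 and 432, 427, 502, 468 and 477 CPM in liver 1 to 5. The ranges overlapped, and its log2 fold change of 0.05 (95% interval -0.36 to 0.46, adjusted p = 0.816) was not called, with an interval that lies within 1.5-fold in both directions. Cebpb was higher in liver at 11.6 ± 8.15 CPM in fat and 58.4 ± 17.7 CPM in liver (-2.33).

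Promoters of 2 liver and 2 fat genes described here are shown as examples of HNF1-type and C/EBP-type motifs. Each of the 4 holds a match, and they do not stand for the genes with the largest gaps. RefSeq promoter windows (GRCm38.p6, 250 bases before to 50 after the start) were matched by symbol for 11124 of the 14739 genes. Below are the 200 bases before the start of 2 liver genes and 2 fat genes, 5′ to 3′ on the gene's strand. Alb lies at chr5:90460670-90460869 on the plus strand, Fga at chr3:83025953-83026152 on the plus strand, Lep at chr6:29060021-29060220 on the plus strand and Plin1 at chr7:79732777-79732976 on the minus strand. Capitals mark a match, on either strand, to GTTAATNAT (the HNF1 type) in Alb and Fga. In Lep and Plin1 they mark a match to TTGCNCAA (the C/EBP type). Other matches are not marked, and Fga also holds the longer C/EBP-type form TTGCNNCAA. The marking thus does not divide the motif types by tissue. Among genes at least 64-fold higher, TTGCNCAA was in 6.94% on the liver side and 6.52% on the fat side.
Alb: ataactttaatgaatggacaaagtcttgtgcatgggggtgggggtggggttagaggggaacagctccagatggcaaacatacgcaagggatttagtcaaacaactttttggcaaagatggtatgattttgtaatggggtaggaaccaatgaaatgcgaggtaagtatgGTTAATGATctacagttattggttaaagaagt
Fga: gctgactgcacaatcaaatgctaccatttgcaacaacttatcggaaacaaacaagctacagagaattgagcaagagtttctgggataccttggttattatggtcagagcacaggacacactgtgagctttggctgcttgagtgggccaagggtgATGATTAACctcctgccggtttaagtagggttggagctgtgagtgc
Lep: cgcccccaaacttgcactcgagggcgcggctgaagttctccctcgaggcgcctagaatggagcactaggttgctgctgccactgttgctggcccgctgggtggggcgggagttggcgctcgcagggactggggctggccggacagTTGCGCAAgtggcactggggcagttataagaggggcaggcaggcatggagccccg
Plin1: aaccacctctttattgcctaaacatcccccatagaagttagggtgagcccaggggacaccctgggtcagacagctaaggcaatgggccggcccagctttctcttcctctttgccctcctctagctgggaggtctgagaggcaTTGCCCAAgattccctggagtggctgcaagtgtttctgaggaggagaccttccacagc

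The HNF1-type motif GTTAATNAT was present, on either strand, in 0.719% of all tested genes with a promoter, in 4.44% (52 of 1171) of those at least 4-fold higher in liver and in 8.1% (35 of 432) of those at least 64-fold higher in liver. Among genes at least 4-fold higher in fat it was in 0.38% (6 of 1579), and among the 230 at least 64-fold higher in fat there was no match. The HNF4A-type motif CAAAGTCCA was in 0.620% of all, 2.13% of genes 4-fold higher in liver and 0.570% of genes 4-fold higher in fat. The C/EBP-type motif TTGCNCAA was in 3.05% of all, and at 64-fold in 6.94% of the liver genes and 6.52% of the fat genes. The longer form TTGCNNCAA was in 1.94%, 3.70% and 2.61% of the same sets, and the DR1-type motif TGACCTTTG in 0.476%, 1.85% and 0.435%. TATAAA, the TATA box, was more frequent on both sides at larger gaps: 9.65% of all, 16.7% of liver and 12.7% of fat genes at 4-fold, and 24.1% and 17% at 64-fold. CAAAGTCCA and TGACCTTTG describe the same kind of repeat, and TTGCNCAA and TTGCNNCAA are forms of 1 site. A gene with several promoters counted when any of them matched. A match is a run of letters and not a bound site.

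Pairs of related genes are described without a test, since they were listed for a difference between these tissues and with earlier results of these data known. In 30 pairs of related genes, each listed as a liver-type member and a fat- or muscle-type member, 19 had the first member called higher in liver and the second higher in fat, and in 17 the member with the higher level per kilobase changed between tissues. Among all genes tested 35.9% were called higher in liver and 38.4% higher in fat. With the length of the longest transcript in place of all exons 17 pairs changed as well, 16 of them the same. Pygb, the brain-type glycogen phosphorylase, went from 57.9% to 43.6% of the pair with Pygl in fat, and Lpin1 from 53.0% to 47.3% of the pair with Lpin2 in liver. Glucose enters hepatocytes through GLUT2, encoded by Slc2a2, and adipocytes through the insulin-responsive GLUT4, encoded by Slc2a4. Slc2a2 was at 638, 473, 569, 502 and 663 CPM in liver 1 to 5 and at most 2.26 CPM in any fat library, while Slc2a4 was at 223, 236, 105, 205 and 157 CPM in fat 1 to 5 and 2.54, 2.52, 1.37, 5.34 and 3.06 CPM in liver 1 to 5. Of the summed level per kilobase, Slc2a4 held 99.8% in fat and 0.855% in liver. The pyruvate kinase pair Pklr and Pkm gave Pkm 99.8% and 4.85%.

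Several lipid pairs were as far apart, and others were closer. The cytosolic fatty acid carrier Fabp4 held 99.7% of the pair with Fabp1 in fat and 0.0673% in liver. Lpl, lipoprotein lipase, against hepatic lipase Lipc held 99.97% and 4.49%, and the lipid droplet protein Cidec against Cideb 99.98% and 1.52%. The glycerol channel Aqp7 against Aqp9 held 98.4% and 0.0555%: adipocytes release glycerol through Aqp7, and hepatocytes take it up through Aqp9. Pparg against Ppara held 96.3% and 4.98%. Acaca against Acacb, the acetyl-CoA carboxylases, held 70.6% and 36.9%, Lpin1 against Lpin2 96.2% and 53.0%, and Plin1 against Plin2 71.4% and 0.281%. Cpt1b, the muscle-type carnitine palmitoyltransferase, held 47.0% in fat (17.5% to 59.3% across libraries) and 1.26% in liver, and Gys1, the muscle-type glycogen synthase, 73.5% and 0.791%. Pck1, the cytosolic phosphoenolpyruvate carboxykinase, outweighed Pck2 in both tissues, with 99.4% and 99.9%, and Irs2 outweighed Irs1 in both.

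**Figure D3:**
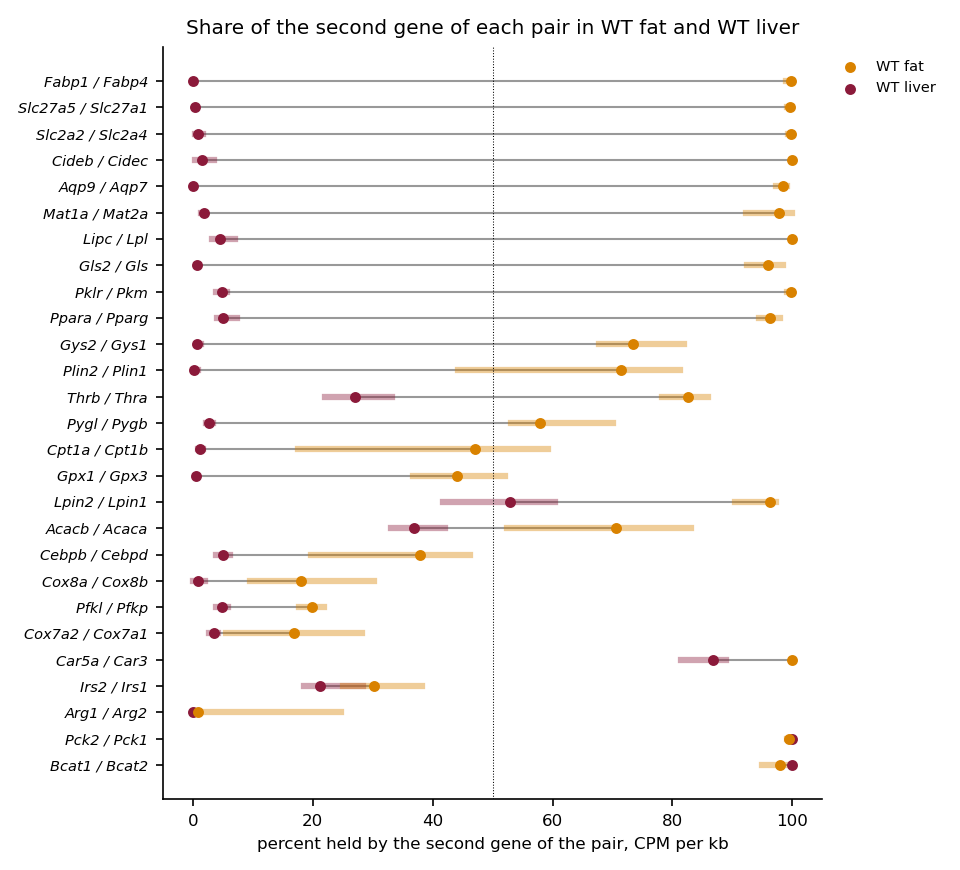
For 27 of the 30 pairs of related genes, the share of the second gene in the summed level of both, in CPM per kilobase of exon, from 0 to 100%; points are ratios of means over 5 libraries, pale bars the range over libraries, and the dotted line marks 50%. In 15 of these 27 pairs the fat and liver points lie on opposite sides of that line, as for Slc2a4 at 99.8% in fat and 0.855% in liver.

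Pck1 itself, which makes glucose in liver and glycerol 3-phosphate in fat, was at 2419, 1558, 1572, 2336 and 2084 CPM in fat 1 to 5 and 4525, 3603, 2863, 5056 and 6022 CPM in liver 1 to 5. Its log2 fold change of -1.15 (95% interval -1.73 to -0.56, adjusted p = 0.00206) was the smallest among the hepatocyte markers. With plain library sizes the value for Pck1 was -0.22. G6pc, which frees glucose at the last step of gluconeogenesis, was at 0.204, 0.0855, 0.0508, 1.25 and 0.142 CPM in fat 1 to 5 and 328, 298, 206, 405 and 1015 CPM in liver 1 to 5 (-10.30, and -11.79 without fat 4). Glycolysis as a list had no common direction, with 7 of 21 genes higher in fat, 6 higher in liver and 8 not called, and its median of -0.06 became 0.24 with upper-quartile factors and 0.88 with plain library sizes. Of 19 insulin and glucagon signalling genes 8 were higher in fat, 4 higher in liver and 7 not called. Over all genes tested, 38.4% were called higher in fat and 35.9% higher in liver. The glucagon receptor Gcgr was at 2.05 ± 0.705 CPM in fat and 273 ± 35.2 CPM in liver (-7.05), Grb14, an inhibitor of the insulin receptor, at 4.34 ± 1.24 CPM in fat and 47.2 ± 9.95 CPM in liver (-3.44), and Tbc1d4, which holds back GLUT4 vesicles, at 62.2 ± 12.0 CPM in fat and 9.30 ± 1.25 CPM in liver (2.74). Those not called were Irs2, Pik3r1, Pik3ca, Pdpk1, Akt1, Foxo1 and Ptpn1.

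All 19 tested adipocyte genes were at least 4-fold higher in fat. Adipoq was at 3799.6, 2320.1, 1837, 2567 and 3131 CPM in fat 1 to 5, a log2 fold change of 10.06 (95% interval 7.66 to 12.46, adjusted p = 4.69e-06), and 10.68 without liver 5. Retn, resistin, was at 1625, 1102, 537, 1214 and 978 CPM in fat 1 to 5 and 0, 0.444, 0, 2.25 and 1.02 CPM in liver 1 to 5 (10.54, and 11.48 without liver 4). Fabp4 was at 11003, 8066, 7099.6, 9752 and 9452 CPM in fat 1 to 5 and 16.4, 18.4, 13.8, 33.7 and 34.0 CPM in liver 1 to 5, a log2 fold change of 8.61 (95% interval 7.66 to 9.55, adjusted p = 5.78e-09). Of the 26 tested adipokine genes 19 were higher in fat and 6 higher in liver. The 6 were Rarres2 (chemerin), Nampt, Agt (angiotensinogen), Fgf1, Igf1 and Lcn2. Rarres2 was at 192 ± 21.8 CPM in fat and 513 ± 70.6 CPM in liver (-1.42), and Igf1 at 175 ± 12.3 CPM in fat and 848 ± 179 CPM in liver (-2.28). Vegfa was not called, at 254 ± 66.6 CPM in fat and 284 ± 20.4 CPM in liver.

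Lipolysis genes were higher in fat in 17 of 18 cases, with a median log2 fold change of 3.60. Triglyceride is split in turn by Pnpla2 (ATGL), Lipe (hormone-sensitive lipase) and Mgll, and catecholamines switch the process on through Adrb3. Pnpla2 was at 1620.5, 1602, 1394, 1973 and 1674 CPM in fat 1 to 5 and 102, 107, 93.7, 98.5 and 99.1 CPM in liver 1 to 5, a log2 fold change of 4.05 (95% interval 3.68 to 4.42, adjusted p = 1.38e-09). Lipe was at 1593 ± 262 CPM in fat and 26.6 ± 4.73 CPM in liver (5.91), Adrb3 at 452 ± 115 CPM in fat and 9.67 ± 2.80 CPM in liver (5.55), and the kinase subunit Prkar2b at 585 ± 202 CPM in fat and 2.81 ± 1.95 CPM in liver (7.71). Mgll, at 1.69, had the smallest log2 fold change of the 3 lipases. Plin1, which coats the adipocyte droplet, was at 1352, 1474, 771, 1348 and 1020.0 CPM in fat 1 to 5 and 0.159, 0.370, 0, 4.03 and 4.08 CPM in liver 1 to 5 (9.44, and 10.06 without liver 5).

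Fatty acid synthesis and desaturation genes differed in direction. Of 15 synthesis genes 7 (46.7%) were higher in fat, near the 38.4% of all genes, 3 were higher in liver and 5 were not called. Fasn, fatty acid synthase, was at 7174, 10071, 2167, 4247 and 1939 CPM in fat 1 to 5 and 649, 986, 706, 553 and 918 CPM in liver 1 to 5, a log2 fold change of 2.75 (95% interval 1.72 to 3.78, adjusted p = 2.15e-04). The fat libraries spanned more than 5-fold for Fasn, and all stood above the liver libraries. Scd1 was at 26714, 31968, 8182, 22509 and 14783 CPM in fat 1 to 5 and 9012, 7525, 3721, 6097 and 6410.0 CPM in liver 1 to 5, and fat 3 fell within the range of liver. Its log2 fold change was 1.67 (95% interval 0.76 to 2.58, adjusted p = 0.00319). The NADPH-making enzymes were higher in fat: G6pdx was at 262 ± 29.5 CPM in fat and 10.4 ± 1.67 CPM in liver (4.64) and Pgd at 295 ± 61.8 CPM in fat and 38.1 ± 6.74 CPM in liver (2.95). Mlxipl, which encodes the carbohydrate-responsive factor ChREBP, was higher in liver at 91.9 ± 22.4 CPM in fat and 444 ± 75.4 CPM in liver (-2.27). Enzymes of polyunsaturated fatty acids were higher in liver, with Fads2 at 10.9 ± 1.68 CPM in fat and 741 ± 122 CPM in liver (-6.09) and Elovl2 at 0.869 ± 1.71 CPM in fat and 1077 ± 296 CPM in liver (-10.25, and -13.20 without fat 4). Fads3 and Scd2 were higher in fat, at log2 fold changes of 4.59 and 4.41.

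Triglyceride synthesis genes divided by isoform, with 12 of 20 higher in fat, 5 higher in liver and 3 not called. Dgat1, one of the enzymes of the last acylation, was at 233, 224, 119, 254 and 154 CPM in fat 1 to 5 and 25.2, 18.4, 18.4, 25.6 and 24.9 CPM in liver 1 to 5, a log2 fold change of 3.13 (95% interval 2.65 to 3.61, adjusted p = 9.97e-08). Dgat2, the unrelated enzyme of the same step, was not called at 1246 ± 604 CPM in fat and 1078 ± 134 CPM in liver (0.21). The phosphatidate phosphatase Lpin2 was at 17.2 ± 4.47 CPM in fat and 577 ± 75.0 CPM in liver (-5.07), while its relative Lpin1 was not called (-0.58). Glycerol backbone enzymes went opposite ways: Gpd1, which makes glycerol 3-phosphate from a glycolytic intermediate, was at 975 ± 434 CPM in fat and 243 ± 61.4 CPM in liver (2.00), and Gk, glycerol kinase, at 15.9 ± 6.92 CPM in fat and 209 ± 51.7 CPM in liver (-3.71). Export of triglyceride as lipoprotein was a liver trait in 17 of 19 genes. Mttp, which loads lipid onto apolipoprotein B, was at 4.79, 3.59, 3.96, 6.56 and 3.83 CPM in fat 1 to 5 and 444, 499, 517, 489 and 509.7 CPM in liver 1 to 5, a log2 fold change of -6.75 (95% interval -7.19 to -6.32, adjusted p = 1.48e-10). The exceptions, both higher in fat, were Apod at 7.63 ± 2.58 CPM in fat and 0.128 ± 0.195 CPM in liver and the phospholipid transfer protein Pltp at 113 ± 34.0 CPM in fat and 64.1 ± 8.44 CPM in liver.

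Mitochondrial beta-oxidation genes mostly differed by less than 4-fold, and more of the peroxisomal and ketone body genes by at least 4-fold. Of 21 mitochondrial genes 17 were higher in liver, 3 of them by at least 4-fold, and 3 were higher in fat, all by at least 4-fold. The list's median of -0.57 became 0.35 with plain library sizes. Cpt1a, the gate for entry of fatty acids into mitochondria, was at 80.3 ± 19.5 CPM in fat and 948 ± 86.0 CPM in liver (-3.56), and Hadhb, part of the trifunctional protein, was not called at -0.01. Of 9 ketone body genes 6 were higher in liver, 5 of them by at least 4-fold, and 1 was higher in fat. Bdh1, which interconverts the main ketone bodies, was at 0.560, 0.599, 1.78, 2.91 and 1.56 CPM in fat 1 to 5 and 379, 490.3, 446, 296 and 370.3 CPM in liver 1 to 5, a log2 fold change of -8.06 (95% interval -8.99 to -7.12, adjusted p = 8.98e-09). Oxct1, which is needed to use ketone bodies and is known to be low in hepatocytes, was at 300.5, 261, 231, 316 and 278 CPM in fat 1 to 5 and 11.3, 13.0, 9.11, 11.3 and 9.35 CPM in liver 1 to 5, a log2 fold change of 4.68 (95% interval 4.37 to 4.99, adjusted p = 1.94e-10). Peroxisomal oxidation genes were higher in liver in 14 of 17 cases, 9 of them by at least 4-fold, with a median of -2.11.

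Brown and beige fat genes were present in the gonadal fat at uneven levels. Ucp1, which uncouples respiration to make heat, was at 45.2, 162, 169, 143 and 19.7 CPM in fat 1 to 5 and 0, 0, 0, 2.81 and 5.52 CPM in liver 1 to 5, so fat 2, 3 and 4 were high and fat 1 and 5 low. The log2 fold change of Ucp1 was 6.03 (7.35 without liver 5). Cidea, a droplet protein of brown fat, followed the same order of fat libraries at 22.6, 67.1, 84.6, 58.9 and 12.1 CPM, with a log2 fold change of 6.43 (9.93 without liver 5). Cpt1b, which brown fat also uses, was at 14.0, 44.6, 51.5, 39.5 and 7.52 CPM and had the same order. Of 17 tested genes of this list 11 were higher in fat and 4 higher in liver. Those 4 were Tmem26, Gk, Ppargc1b and its relative Ppargc1a, a coactivator of mitochondrial genes, the last of which was at 5.82 ± 2.15 CPM in fat and 28.8 ± 5.45 CPM in liver (-2.30). Tmem26 lost its call when any of 7 of the 10 libraries was left out, and its log2 fold change went from -1.39 to -2.12 without fat 3.

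Hox genes, homeobox factors that record position along the body axis, separated the tissues by their place in the cluster. Of 39 listed, 32 passed the filter on low counts, and all 32 were higher in fat. A gene silent in liver passed that filter only through fat, so the count by itself carries little. Summed over the 15 listed genes of paralogue groups 1 to 5, 13 of them tested, the level was 48.4 to 70 CPM in the fat libraries and 5.63 to 9.18 CPM in the liver libraries. For the 8 genes of groups 6 to 8 it was 75 to 112 CPM and 0.397 to 0.741 CPM. For the 16 of groups 9 to 13, 11 of them tested, it was 63.2 to 80 CPM and 0 to 0.281 CPM. Liver thus kept anterior Hox transcripts at low levels and had almost none of the posterior ones. Hoxa5 was at 5.91, 7.53, 4.77, 7.62 and 5.06 CPM in fat 1 to 5 and 0.715, 0.741, 0.392, 1.03 and 0.765 CPM in liver 1 to 5 (3.07). Hoxa9 was at 15.8, 14.2, 17.1, 17.7 and 13.6 CPM in fat 1 to 5 with 0 counts in liver, at least 305-fold higher in fat with the floor of 3 counts over the group. Within groups 1 to 5, the Hoxa and Hoxb genes differed by 1.08 to 3.12 on the log2 scale, while Hoxc4 was at 6.51 (7.57 without liver 4), Hoxc5 at 8.08 (9.82 without liver 5) and Hoxd3 at 4.60, and Hoxd4 had no count in liver.

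**Figure D4:**
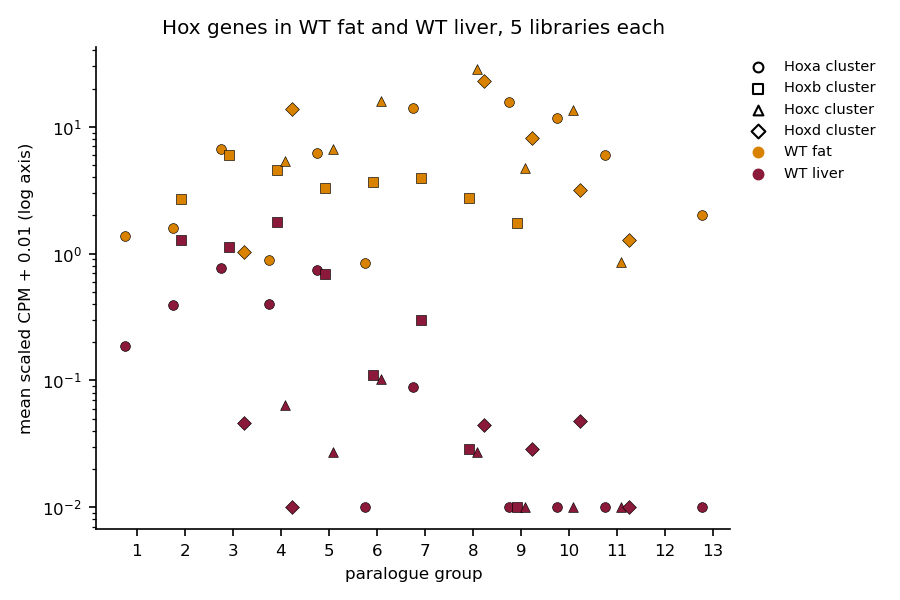
Mean level of the 32 tested Hox genes over 5 libraries of each tissue, in scaled CPM plus 0.01 on a log axis, by paralogue group; shapes mark the 4 clusters. Fat means lie between 0.836 and 28.6 CPM, while liver means fall from up to 1.77 CPM in groups 1 to 5 to 0 for most genes of groups 9 to 13.

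Nuclear receptors were more often called higher in liver, and imprinted genes higher in fat. Of 36 nuclear receptors 22 were higher in liver and 10 higher in fat, with a median log2 fold change of -0.68 that became 0.25 with plain library sizes. Esr1, the oestrogen receptor, was not called at 97.1 ± 22.9 CPM in fat and 92.0 ± 24.1 CPM in liver. Pgr, the progesterone receptor, was at 2.39, 2.52, 24.6, 2.77 and 12.9 CPM in fat 1 to 5 and 0, 0, 0.0980, 0.0938 and 0.170 CPM in liver 1 to 5, with a log2 fold change of 6.89 (6.09 without fat 3 and 7.48 without liver 5). Among 17 tested imprinted genes 15 were higher in fat and 2 were not called. Nnat, neuronatin, had the largest gap and is among the genes given first. Meg3, a long noncoding RNA, was at 82.5 ± 16.7 CPM in fat and 1.91 ± 0.437 CPM in liver (5.44), and Grb10, an insulin receptor adaptor, at 109 ± 9.81 CPM in fat and 8.06 ± 0.948 CPM in liver (3.76).

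Matrix and vessel genes were higher in fat, with a few exceptions. Of 23 collagens 19 were higher in fat and 4 higher in liver. Col3a1, a fibrillar collagen, was at 1258, 1278, 3659, 1761 and 2315 CPM in fat 1 to 5 and 63.2, 63.0, 89.5, 42.3 and 105 CPM in liver 1 to 5, a log2 fold change of 4.82 (95% interval 3.95 to 5.70, adjusted p = 4.09e-07). Col1a1 was highest in fat 3, and its log2 fold change was 5.58 (4.76 without fat 3). Col18a1, which gives rise to endostatin, was the only collagen at least 4-fold higher in liver, at 129.7 ± 24.4 CPM in fat and 1331 ± 95.3 CPM in liver (-3.36). Fn1, fibronectin, of which hepatocytes make the plasma form, was at 665 ± 469.7 CPM in fat and 3983 ± 446 CPM in liver (-2.58). All 13 pan-endothelial genes were higher in fat, with Pecam1 at 166 ± 33.6 CPM in fat and 35.2 ± 4.69 CPM in liver (2.24). Markers of liver sinusoidal endothelium went the other way in 10 of 13 cases. Stab2, a scavenger receptor of those cells, was at 1.42 ± 0.743 CPM in fat and 113 ± 5.06 CPM in liver (-6.32), and Clec4g, a lectin, at 0.0757 ± 0.0850 CPM in fat and 82.9 ± 13.0 CPM in liver (-9.96, and -10.55 without fat 5). Lrat, which stores vitamin A in hepatic stellate cells, was at 0.104 ± 0.139 CPM in fat and 35.6 ± 7.15 CPM in liver (-8.31, and -9.33 without fat 5), whereas Des, a filament of muscle and stellate cells, was at 149 ± 75.5 CPM in fat and 12.9 ± 9.86 CPM in liver (3.54). Mesothelial genes were higher in fat in 10 of 12 cases, the exceptions being the keratins Krt8 and Krt18, which hepatocytes also express.

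Macrophage genes were partly shared and partly split by tissue. Of 20 general macrophage markers 12 were higher in fat and 8 were not called. Adgre1, which encodes F4/80, was at 20.4, 26.8, 139, 27.9 and 34.5 CPM in fat 1 to 5 and 67.3, 59.8, 56.3, 28.7 and 35.2 CPM in liver 1 to 5, and Csf1r at 138 ± 66.4 CPM in fat and 141 ± 42.9 CPM in liver. Neither was called. Of 11 Kupffer cell markers 7 were higher in liver, C6 was not called, and Folr2 at 0.72, Cdh5 at 2.13 and Id3 were higher in fat, of which Folr2 lost its call when any of 5 of the 10 libraries was left out. Clec4f, a lectin of Kupffer cells, was at 0.102, 0.214, 0.102, 0.601 and 0 CPM in fat 1 to 5 and 304, 270.2, 235, 167 and 205 CPM in liver 1 to 5, a log2 fold change of -10.10 (-11.01 without fat 4). Cd5l, secreted by tissue macrophages, was at 7.11 ± 11.8 CPM in fat and 281 ± 83.3 CPM in liver (-5.31, and -7.21 without fat 3). On the fat side, Retnla, a gene of alternatively activated macrophages, was at 166, 161, 82.7, 118 and 275 CPM in fat 1 to 5 and 0.159, 0.222, 0, 0.563 and 0.255 CPM in liver 1 to 5, a log2 fold change of 9.35 (95% interval 8.27 to 10.43, adjusted p = 8.47e-09), and Clec10a at 63.1 ± 25.7 CPM in fat and 1.29 ± 0.501 CPM in liver (5.59). Trem2, Gpnmb, Cd68 and Lyz2 were highest in fat 3. Without it, their log2 fold changes went from 3.83 to 2.25, from 7.89 to 5.01, from 1.49 to 0.41 and from 1.87 to 1.27. Cd68 lost its call when any of 6 of the 10 libraries was left out. Of 8 tested T lymphocyte and NK cell markers, edgeR, DESeq2 and limma-voom each called 0, and edgeR gave 0 at an unadjusted p under 0.05. All 13 listed markers together had low summed levels of 9.93 to 16.2 CPM in fat and 5.06 to 17.4 CPM in liver.

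**Figure D5:**
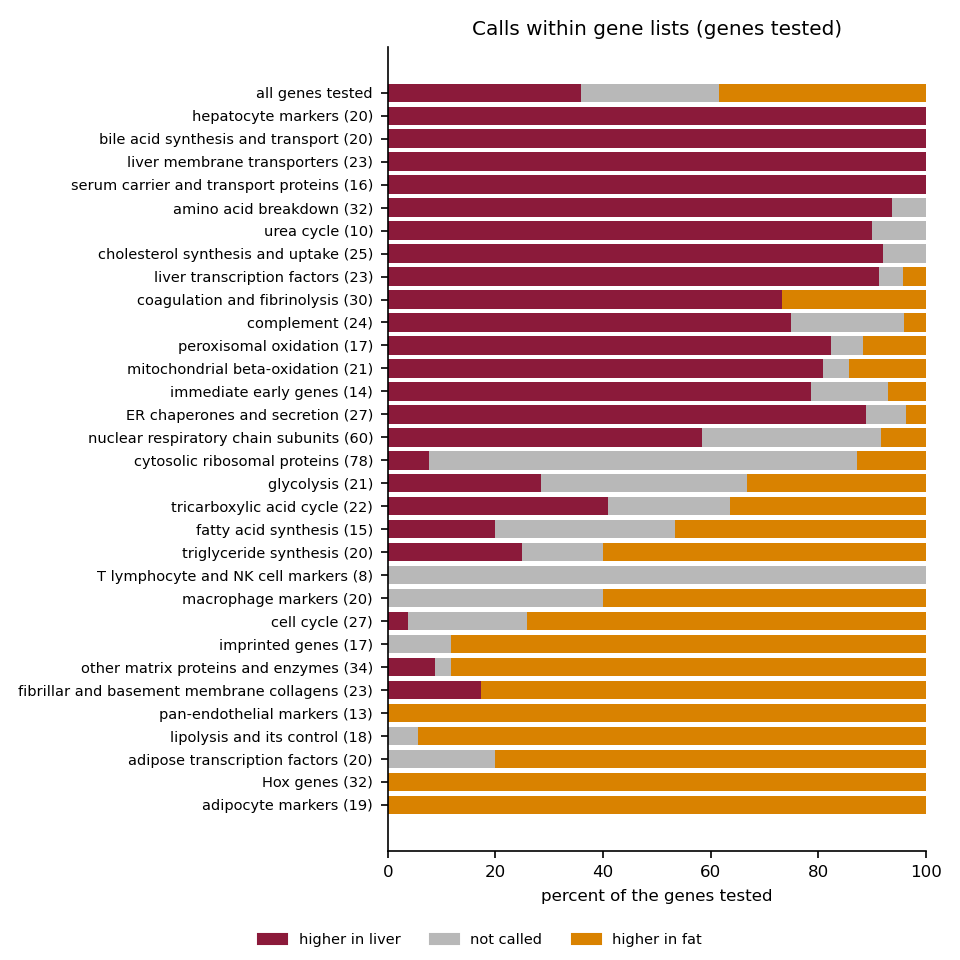
Share of tested genes called higher in liver (left), not called (grey) and called higher in fat (right) in 31 gene lists and over all 14739 genes, with the number tested in brackets. Hepatocyte, bile acid, transporter and serum carrier lists are wholly higher in liver, adipocyte, endothelial and Hox lists wholly higher in fat, and ribosomal protein genes are mostly not called. Hox genes silent in liver passed the filter on low counts only through fat, which fixed their direction in advance.

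Genes of the core cellular machinery differed by small factors. Of 78 cytosolic ribosomal protein genes 62 were not called, 10 were higher in fat and 6 higher in liver, none of these by 4-fold, and the list's median was 0.06, or 1.00 with plain library sizes. Of 60 nuclear respiratory chain genes 35 were higher in liver, none by 4-fold, with a median of -0.32 that became 0.60 with plain library sizes. ER chaperone and secretion genes were higher in liver in 24 of 27 cases, with a median of -0.87 that became 0.07 with plain library sizes. Among 20 usual reference genes 15 were called, which is near the 74.3% called over all genes tested. Actb, actin, was at 870.2 ± 280.2 CPM in fat and 378 ± 66.1 CPM in liver, a log2 fold change of 1.21, and Gapdh at 769.6 ± 157 CPM in fat and 1224 ± 333 CPM in liver, a log2 fold change of -0.67 that became 0.26 with plain library sizes. Polr2a, Rplp0, Rpl13a, Ywhaz and Tfrc were not called. The genes whose intervals were narrowest around 0 among protein-coding genes of at least 100 CPM were Mlf2, Nrd1, Usp19, Gm2a, Srsf6, Nsd1, Rapgef1, Clta, Dag1 and Cd81. Mlf2 was at 134, 129.8, 130.1, 125 and 137 CPM in fat 1 to 5 and 126, 136, 126, 138 and 132 CPM in liver 1 to 5, with an interval of -0.16 to 0.15 on the log2 scale.

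Transcripts that respond quickly to handling, growth or time of day also differed. Of 14 immediate early genes 11 were higher in liver. Fos was at 9.73, 5.64, 26.2, 6.70 and 7.38 CPM in fat 1 to 5 and 165, 168, 163, 235 and 144 CPM in liver 1 to 5, a log2 fold change of -3.98 (95% interval -4.88 to -3.08, adjusted p = 2.86e-06), and Egr1 at 18.8 ± 4.78 CPM in fat and 443 ± 59.2 CPM in liver (-4.56). Time between death and freezing of each tissue is not stated in the labels, and its part in these values was not tested. Cell cycle genes were higher in fat in 20 of 27 cases at low levels, with a median of 1.45 that became 1.01 without fat 3. Their summed levels overlapped, at 195.8 to 688.9 CPM in fat and 192.5 to 303.5 CPM in liver. Top2a, a topoisomerase of dividing cells, was at 14.2, 9.62, 58.2, 11.6 and 25.5 CPM in fat 1 to 5 and 6.59, 7.78, 9.70, 3.0 and 6.37 CPM in liver 1 to 5, and was highest in fat 3 (1.83, and 1.19 without it). Of 17 tested clock genes 10 were higher in liver, 2 were higher in fat and 5 were not called, among them Clock at 0.03, Per1 at -0.23 and Arntl at 0.42. The median of the clock list, -0.72, became 0.21 with plain library sizes. Bhlhe40 at -2.98 and Hlf at -2.58 were higher in liver, and Bhlhe41 at 3.62 was higher in fat.

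Prkce, the protein kinase C isoform that the series' knockout concerns, was at 37.0, 44.5, 25.7, 48.3 and 26.5 CPM in WT fat 1 to 5 and 14.5, 20.9, 17.3, 27.3 and 17.7 CPM in WT liver 1 to 5. The ranges overlapped, and its log2 fold change was 0.90 (95% interval 0.43 to 1.36, adjusted p = 0.00231). Of 12 protein kinase C and D genes 7 were higher in fat, 3 higher in liver and 2 not called. Prkd1 had the largest gap at 29.8 ± 7.86 CPM in fat and 0.102 ± 0.118 CPM in liver (8.09, and 8.73 without liver 4), and Prkcz was higher in liver at 2.02 ± 0.784 CPM in fat and 26.4 ± 3.02 CPM in liver (-3.70).

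Libraries of fat differed from each other more than libraries of liver. The common biological coefficient of variation was 28.4% in fat and 18.5% in liver, and 22.2% in fat without fat 3. Among 5022 genes with at least 20 CPM in both tissues, the median SD of log2 CPM was 0.165 in fat and 0.147 in liver. The most variable genes in fat were Spp1, Gpnmb and Arg1, all highest in fat 3, and the skeletal muscle genes Myh4, Atp2a1, Ckm, Ttn and Myh1. Spp1, osteopontin, was at 1.78, 0.599, 990.3, 7.35 and 8.80 CPM in fat 1 to 5 and 80.3, 81.8, 30.3, 49.8 and 76.1 CPM in liver 1 to 5, and its log2 fold change of 1.66 had an interval of -1.79 to 5.12 and was not called. In liver, besides muscle genes, the most variable were Serpina4-ps1, Slco1a1, Serpina1e and Cyp3a16. Slco1a1, an organic anion carrier, was at 3.65, 244, 514, 209.9 and 40.1 CPM in liver 1 to 5, and Serpina1e, an alpha-1-antitrypsin copy, at 85.3, 823, 4369.5, 1380.1 and 338 CPM. Serpina1e has near-identical copies whose reads the counting could have split. Liver 3 was highest for both, and the log2 fold changes of -9.70 and -8.67 became -9.01 and -7.59 without it, and -11.85 without fat 4 and -10.67 without fat 5.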

How the data were processed

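RNA of gonadal fat and of liver was sequenced with a stranded mRNA kit, per the labels' protocols, with 5 WT libraries from each tissue. The authors deposited expected counts per gene, not normalized, made with Trim Galore 0.2.8, STAR 2.4.0d and RSEM 1.2.12 on GRCm38, per the submitters' processing notes. The strand setting and annotation release are not stated in the labels. In each library 3.95% to 5.55% of the values were not whole. Expected counts split reads between similar genes by estimate, so close paralogues are less certain.

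Counts were rounded and analysed with edgeR 4.0.16 in R 4.3.3. Genes were kept by filterByExpr on tissue, scaled with TMM and tested with the robust quasi-likelihood F-test. The Benjamini-Hochberg adjustment ran over all 14739 genes, and a gene was called at an adjusted p under 0.05. Of 48440 gene IDs, 48058 matched a symbol. Scaling factors were 1.306 to 1.457 in fat and 0.713 to 0.738 in liver. DESeq2 1.42.0 and limma 3.58.1 served as alternatives, beside other scalings, filters and left-out libraries. The scripts were tested on simulated data in which few genes differed between the tissues. Those data could not test the scaling where most genes differ, as they do here. Within a tissue, no libraries matched within sampling noise. The median of a list stands beside the 0.04 of all genes.

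Genes could be named if they were on a list or in a pair, among the 10 with the most counts in a tissue, the 15 with the largest fold change in each direction at 50 CPM or more, the 10 nearest to equal at 100 CPM or more, or the 8 most variable in a tissue at 20 CPM or more. The pairs, lists and motifs were chosen with earlier results of these data known. Levels printed for members were chosen by role, and a few members are not reported here.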

Additional observations from a re-analysis of the deposited data

Results flagged for a closer look

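In 30 of 254 groups of 5 libraries whose levels or shares are given above (11.8%), 1 library lay far from the rest by Dixon's ratio at its 95% critical value of 0.71. Some of the genes were named because they varied most within a tissue, so this share cannot be set against a chance rate. Genes of the same cells move together, so the 30 are not separate events. In each case the first number is the library that stood apart and the range is that of the other libraries, in CPM.

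Fat 3 accounted for 10. Genes that macrophages express were high in it: Spp1 at 990.3 against 0.599 to 8.80, Gpnmb at 423 against 6.26 to 23.7, Adgre1 at 139 against 20.4 to 34.5, Arg1 at 131 against 0.662 to 8.73, and Cd5l at 28.2 against 0.357 to 2.77. Fn1 at 1489.7 against 328 to 580.4, Fos at 26.2 against 5.64 to 9.73, Cpt1a at 114 against 67.3 to 80.4, and Lpin2 at 25.1 against 14.6 to 16.7 were high in it as well. Bcat2 was low in it, at 93.1 against 149 to 167.

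Fat 4 accounted for 8, all of them genes higher in liver. Alb stood at 338 against 9.44 to 52.9, Cps1 at 15.5 against 0.102 to 1.47, Fga at 14.3 against 0.0508 to 1.67, and Plg at 11.5 against 0 to 1.37. Hpx stood at 11.4 against 0.711 to 3.50, F2 at 6.38 against 0 to 0.615, and Cyp3a11 at 5.64 against 0 to 0.662. Cyp2e1 stood at 3242 against 1708 to 2032. In fat 5, Lcn2 stood at 23.2 against 0.509 to 3.97 and Serpina1e at 13.7 against 0 to 2.86.

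Liver libraries stood apart in single genes. Hpx was 7087 in liver 1 against 4555 to 5258, and Selenop was 9209 in liver 2 against 11186 to 11571. In liver 3, Cyp3a11 was 1017 against 1548 to 1685, Inhbe was 123 against 46.9 to 67.9 and Idi1 was 73.8 against 24.9 to 37.5. Liver 4 had Hamp at 164 against 25.5 to 63.3, Fos at 235 against 144 to 168 and Cyp1b1 at 3.56 against 1.44 to 1.99. Liver 5 had G6pc at 1015 against 206 to 405 and Igfbp1 at 619.6 against 248 to 345.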

How the results depend on the processing

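The count of called genes was 10947, lay between 9797 and 12839 under the scalings, filters, tools, the replicate block and the left-out libraries, and fell to 5380 when edgeR tested against a 2-fold difference. The count at 4-fold or more was 3882 and lay between 3625 and 5702. Without 1 library at a time, the coefficient of variation was 22.2% to 30.3% in fat, lowest without fat 3, and 18.3% to 18.8% in liver. Over all called genes in place of those at 4-fold, motif frequencies among liver genes were 10.2% for TATAAA, 0.95% for CAAAGTCCA, 1.46% for GTTAATNAT, 1.95% for TTGCNNCAA, 3.31% for TTGCNCAA and 0.414% for TGACCTTTG, and TATAAA was in 9.82% of fat genes. Of 246 named genes only Gapdh changed sign after being called, to 0.26 with plain library sizes. Of the 189 called among them, 4 lost the call without some single library, Cd68, Folr2, Lcn2 and Tmem26. With plain library sizes 6 of the named genes lost the call and 46 gained it. With upper-quartile factors 3 lost it and 23 gained it, and against a 2-fold difference 18 lost it.

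The labels do not say whether fat and liver libraries of the same number come from 1 mouse. Deviations of same-numbered fat and liver libraries correlated at 0.17, -0.02, 0.04, 0.15 and 0.01. Those of unlike numbers correlated at -0.26 to 0.31. Weak correlations between 2 organs cannot decide whether the numbers pair the libraries. With the replicate block 10537 genes were called. The difference in the share of the 10 most abundant genes kept its sign in every alternative run. Its exact permutation p stayed under 0.05 with 50 or 100 genes and without the mitochondrially encoded genes. Leaving out 1 library could only give a p of 0.0159 in that test, because the ranges did not overlap. The predominant member changed in 17 pairs with either length, of which 16 were the same pairs. With plain library sizes 15 of 78 lists changed the sign of their median, with upper-quartile factors 3. Leaving out liver 2 and 4 and comparing lists under each scaling were chosen after seeing the data. For genes with 1 to 3 counts in 1 tissue, counting leaves wide intervals: the ratio for Cdsn, with 1 count in liver, lay between 1100-fold and 242000-fold.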

Other observations

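The axis of growth hormone and insulin-like growth factors held genes of both tissues. Growth hormone acts on liver through its receptor, Ghr, and liver secretes IGF1, which binding proteins carry in plasma. Of 16 genes 6 were higher in fat, 8 higher in liver and 2 not called, where 38.4% and 35.9% of all genes were called higher in fat and in liver. The list's median log2 fold change of -0.39 became 0.54 with plain library sizes. Ghr was not called, at 1069, 918, 654, 1104 and 728 CPM in fat 1 to 5 and 688, 568, 703, 704 and 788 CPM in liver 1 to 5. Igfbp2, a secreted binding protein, was at 1.52 ± 1.29 CPM in fat and 432 ± 65.2 CPM in liver (-8.13), whereas Igfbp6 was at 109 ± 39.1 CPM in fat and 1.69 ± 0.592 CPM in liver (5.98) and Igfbp5 at 340.1 ± 98.9 CPM in fat and 18.4 ± 5.13 CPM in liver (4.21). Prlr, the prolactin receptor, was at 22.4 ± 9.73 CPM in fat and 575 ± 48.9 CPM in liver (-4.68).

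Iron genes were higher in liver in 15 of 21 cases. Hamp encodes hepcidin, the hormone that closes iron export, and Hamp2 is its paralogue. Hamp was at 0.266 ± 0.295 CPM in fat and at 25.5, 38.9, 40.3, 164 and 63.3 CPM in liver 1 to 5, and Hamp2 at 0.215 ± 0.250 CPM in fat and at 367, 327, 141, 301 and 475 CPM in liver 1 to 5. The exporter that hepcidin acts on, Slc40a1, was at 20.1 ± 5.23 CPM in fat and 392 ± 45.1 CPM in liver (-4.29). Bmp6, the signal that raises hepcidin, was higher in fat at 12.2 ± 3.12 CPM in fat and 4.36 ± 1.36 CPM in liver (1.48). Interferon-stimulated genes had no common direction, with 4 of 24 higher in fat, 10 higher in liver and 10 not called. Over all genes tested, 38.4% were called higher in fat and 35.9% higher in liver. Their median of -0.17 became 0.12 with upper-quartile factors and 0.77 with plain library sizes. Ifi27l2a stood apart in fat at 814, 522, 656, 735 and 814 CPM in libraries 1 to 5, against 13.6, 8.59, 10.3, 12.1 and 14.7 CPM in liver (5.90), and Iigp1, an interferon-induced GTPase, was at 60.1 ± 35.9 CPM in fat and 678 ± 52.5 CPM in liver (-3.50).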
